A study of Mus musculus with 16 samples.

Results

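Beta cell maturity and dedifferentiation genes were followed across the founder strains of the Diversity Outbred (DO) mouse population, by the levels of 6 genes in whole-islet RNA. The genes Ucn3, Aldh1a3, Slc5a10, Gast, Cck and Neurog3 were taken by name from the 54146 genes of each expression table, and all 6 were found. They are a named set chosen with earlier results of these data known. A mature beta cell makes and releases insulin in proportion to glucose. Under metabolic stress beta cells can lose this identity, which is called dedifferentiation, and then express genes of immature, progenitor or other hormone cells. Ucn3 encodes urocortin 3, a peptide that mature beta cells release and that acts on delta cells through the receptor Crhr2. Aldh1a3 encodes an aldehyde dehydrogenase that makes retinoic acid from retinal, and it is known as a gene that failing beta cells switch on. Slc5a10 encodes a sodium-coupled sugar transporter best known from the kidney. Gast and Cck encode gastrin and cholecystokinin, related hormones of the stomach and the gut that beta cells of hyperglycaemic or obese mice have been found to make. Neurog3 encodes the transcription factor that commits pancreatic progenitors to the endocrine fate, and its level is low in adult islets.

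RNA was sequenced from islets of 26-week-old mice of both sexes, every one of them on a high-fat diet, so that no library of another diet or age enters a comparison. The strains were 129S1_SvImJ (129, n = 10 libraries), A_J (AJ, n = 14), C57BL/6J (B6, n = 18), CAST_EiJ (CAST, n = 14), NOD_ShiLtJ (NOD, n = 10), NZO_HlLtJ (NZO, n = 4), PWK_PhJ (PWK, n = 5) and WSB_EiJ (WSB, n = 16). These are inbred strains for which the labels give no transgene and no treatment beside the diet, and CAST, PWK and WSB are wild-derived. NZO is known for obesity and diabetes and NOD for autoimmune attack on beta cells, but no glucose or weight of these animals was analysed here. Both sexes were labelled in every strain, with 3 females and 1 male in NZO and 1 female and 4 males in PWK.

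Each of the 91 libraries held 16928552 to 35196145 expected counts, with a median of 27485367. The labels do not say that each library is a separate mouse, so p-values measure the spread between libraries. In 12 libraries, 6 of 129, 2 of NOD and 4 of WSB, Xist and Y-linked counts went against the labelled sex. The animals were handled in several waves, per the labels, and the wave of each library was not known here. Library numbers placed 129, NOD, NZO and PWK (66 to 100) apart from AJ, B6, CAST and WSB (1 to 65). Whether these ranges are waves is not known, so any difference in handling between the 2 sets cannot be told apart from strain. Defining markers of the islet were present in every library: 6 beta cell markers led by Ins2 and Ins1 summed to between 166241 and 571689 TPM, the transcripts of a gene scaled for its length and for the library. Markers of exocrine acinar cells were also present, at a sum of 1507 to 266842 TPM. NZO replicate 4, the only labelled NZO male, stood apart: with Y-linked counts it had 48 CPM of Xist (counts scaled to the size of the library), against 0.803 to 11.8 CPM in the 45 other libraries with Y-linked counts and 197 to 1274 CPM in the 45 without. The fitted contrasts of NZO are therefore given with and without it.

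Strains differed in all 6 genes. The difference between strains was tested by edgeR's quasi-likelihood F test on upper-quartile normalized counts with labelled sex in the model, and p-values were adjusted by the Benjamini-Hochberg method over all genes tested. All members but Cck passed the filter on low counts of 15204 genes, whereas Cck, non-zero in 83.5% of libraries, was tested among the 19718 protein-coding genes with any count. The adjusted p-values (edgeR) were 6.54e-16 for Ucn3, 1.42e-25 for Aldh1a3, 2.45e-12 for Slc5a10, 6.05e-11 for Gast, 1.37e-28 for Cck and 8.92e-14 for Neurog3. Because 97.4% of the filtered genes and 88.4% of the unfiltered genes were called between strains, a call by itself says little about these genes, and the size and the order of the levels are described instead. Of the 28 pairs of strains, 21 were called for Ucn3, 22 for Aldh1a3, 18 for Slc5a10, 12 for Gast, 9 for Cck and 19 for Neurog3. Over all genes and pairs the share called was 50.3% of the filtered and 42.5% of the unfiltered genes. The strain effect was also called for all 6 genes within AJ, B6, CAST and WSB, where 86.6% of filtered and 74.2% of unfiltered genes were called. Within 129, NOD, NZO and PWK it was called for 5 of the 6, with 81.6% and 70.3% of genes called, and Ucn3 missed the threshold there with an adjusted p of 0.113 (edgeR).

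**Figure D1:**
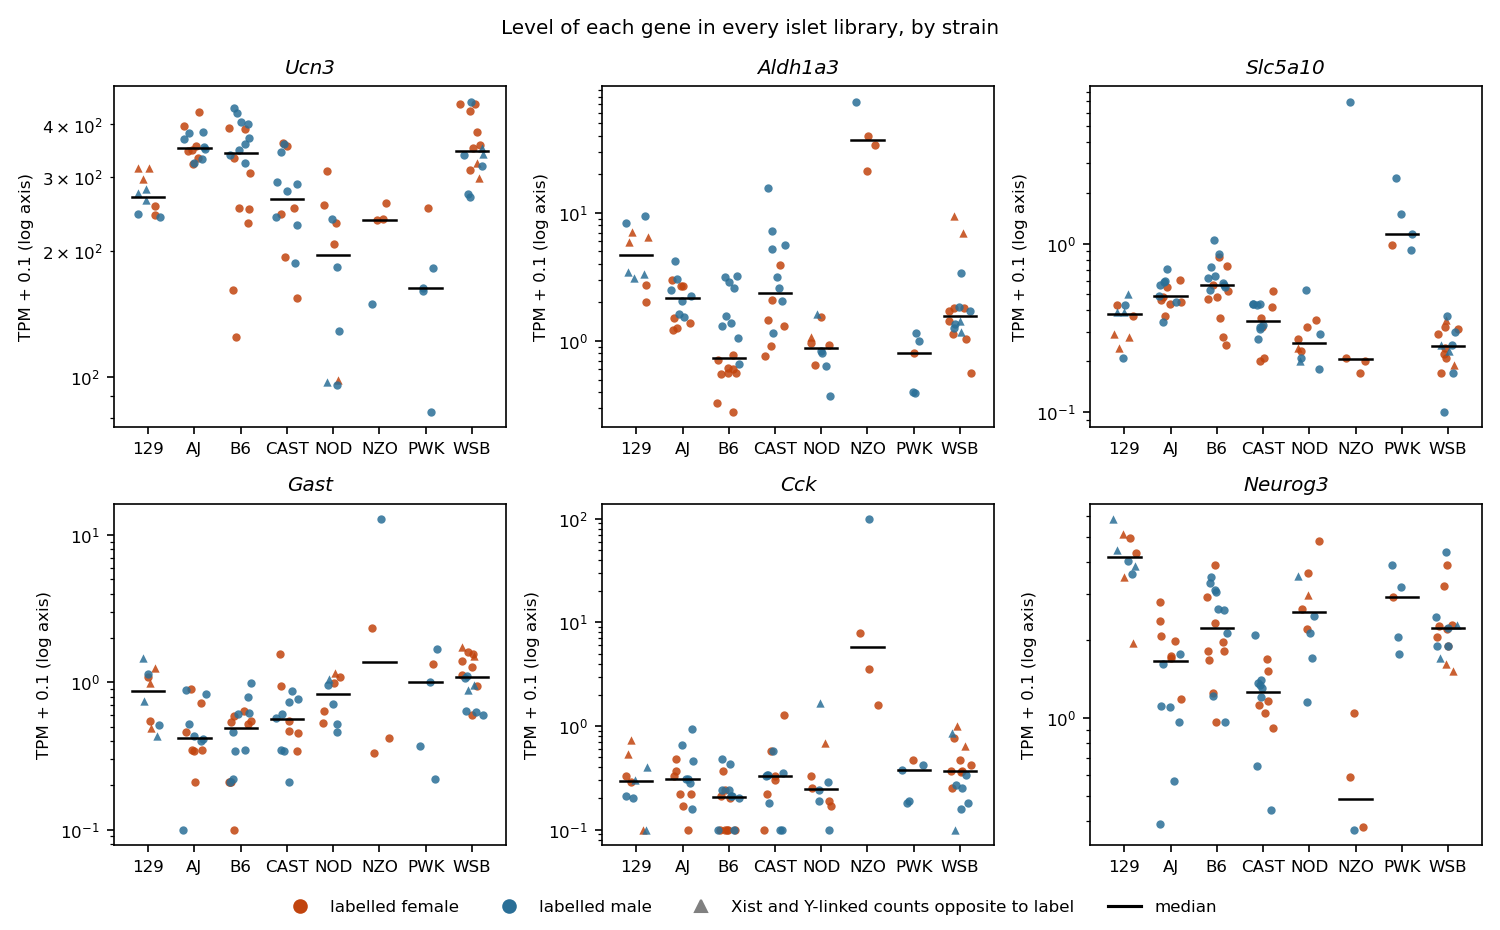
TPM + 0.1 on a log axis in each of the 91 islet libraries, by strain, with 1 panel per gene. Colour marks the labelled sex, triangles mark the 12 libraries whose sex-linked counts go against the label, and bars are medians; all 4 NZO libraries lie above every other library for Aldh1a3, while 1 NZO library stands far above the others for Slc5a10, Gast and Cck.

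Ucn3 was abundant in every strain, and relative to its level it varied the least of the 6 genes over all libraries. The gene (ENSMUSG00000044988.7) lies on the minus strand of chromosome 13 of GRCm38, from 3940688 to 3945349. Its level was highest in AJ at 359 TPM ± 30.5 (SD, n = 14), WSB at 356 TPM ± 60.7 (n = 16) and B6 at 325 TPM ± 89 (n = 18). It was 273 TPM ± 28.5 in 129 (n = 10), 270 TPM ± 67.4 in CAST (n = 14) and 221 TPM ± 48.9 in NZO (n = 4). NOD, at 185 TPM ± 76.6 (n = 10), and PWK, at 168 TPM ± 61 (n = 5), had the lowest means. Of the 7 pairs of neighbours in this order, none differed beyond its spread in permutation tests on log2(TPM + 0.1), with the smallest adjusted p at 0.546. On normalized counts, with labelled sex in the model, 4 of these pairs passed the test (edgeR), with B6 higher than 129, CAST higher than 129, CAST higher than NZO and NOD higher than PWK. The pair of CAST and NZO missed the threshold without NZO replicate 4 (adjusted p = 0.173, edgeR).

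The PWK libraries held 161, 181, 163, 82.5 and 254 TPM of Ucn3. The WSB libraries ranged from 269 to 454 TPM with a median of 345, so that the 2 strains did not overlap. On normalized counts PWK was lower than each of the other 7 strains, and WSB exceeded it by 1.36 on the log2 scale (SE 0.16, adjusted p = 1.5e-11, edgeR). All of AJ, B6, CAST and WSB were higher than all of 129, NOD, NZO and PWK in this model, which is also the split of the library numbers. Without NZO replicate 4 the differences of NZO from AJ and CAST missed the threshold (adjusted p = 0.0562 and 0.173, edgeR). Fitted within each set, the highest-to-lowest difference was 0.36 among AJ, B6, CAST and WSB (adjusted p = 6.98e-06, edgeR) and 0.63 among 129, NOD, NZO and PWK, where it missed the threshold (adjusted p = 0.113), and for the difference between the sets strain and handling cannot be told apart. The order of the upper strains depended on the scale, with AJ first by TPM and WSB first by fitted counts. NOD spread widely, from 95.5 through a median of 195 to 310 TPM, and 4 of the 6 lowest libraries of all 91 came from it.

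Several of the lowest Ucn3 libraries held much acinar RNA. Of the 6 lowest, PWK replicate 4, NOD replicates 3 and 5 and B6 replicate 14 held 239310 to 266842 TPM of the acinar markers and 166241 to 233450 TPM of the beta cell markers. The other 2 of them, NOD replicates 7 and 10, held only 36216.5 and 37487.2 TPM of acinar markers. In bulk islets, fewer cells of a type and less RNA per cell cannot be told apart. Set against the summed beta cell markers, the median Ucn3 per 1000 TPM of markers still ran from 0.477 in PWK, 0.529 in NZO and 0.586 in NOD through 0.598 in 129, 0.679 in AJ and 0.682 in CAST to 0.777 in B6 and 0.824 in WSB. With the summed acinar markers as a further covariate, the highest-to-lowest difference of Ucn3 between strains was 1.34 on the log2 scale (adjusted p = 2.44e-15, edgeR), beside 1.36 without it. The part of other cell types was not tested. NOD libraries also held T cell markers at a median sum of 57.1 TPM and up to 299 TPM, against a median of 0.35 TPM over all libraries but NZO, with NOD among them.

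The urocortin pathway was thin in these islets apart from its ligand. Of 6 other members of the urocortin and corticotropin-releasing hormone family, 5 were tested and 4 were called between strains. Crhr2, the receptor of urocortin 3, had the highest mean in PWK at 2.56 TPM ± 0.932 (SD, n = 5) and the lowest in NZO at 0.378 TPM ± 0.139 (n = 4). Crhr1, the receptor for the releasing hormone itself, was highest in NOD at 2.21 TPM ± 0.550 and lowest in PWK at 0.112 TPM ± 0.0669. Crhbp, a binding protein that holds the hormone back, ranged from 5.58 TPM ± 1.43 in AJ to 0.02 TPM ± 0.0141 in NZO. PWK thus combined the lowest mean level of the ligand with the highest mean of the receptor Crhr2. The 2 delta cell markers had the same ends as Crhr2, with a median sum of 14978 TPM in PWK and 1312 TPM in NZO, and their part in the level of Crhr2 was not tested. Ucn2, a related ligand, stayed at or under 0.194 TPM in the mean of every strain.

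Aldh1a3 separated NZO from every other strain. The gene (ENSMUSG00000015134.15) lies on the minus strand of chromosome 7, from 66390890 to 66427517. Its 4 NZO libraries held 39.8, 21.2, 33.6 and 73.7 TPM, while the 87 other libraries ranged from 0.18 to 15.6 TPM with a median of 1.44. No library of another strain reached the lowest NZO library. The 5 duct markers were also higher in NZO, at a median sum of 252 TPM against 75.1 TPM elsewhere, and at 266, 165, 238 and 842 TPM in replicates 1 to 4 they ranked these libraries as Aldh1a3 did. Their part in the level of Aldh1a3 was not tested. The mean of NZO, 42.1 TPM ± 22.4 (SD, n = 4), was followed by 129 at 5.09 TPM ± 2.61 (n = 10). These neighbours differed by 3.05 on the log2(TPM + 0.1) scale (exact permutation test, p = 0.000999, the smallest that 4 against 10 libraries allow, adjusted p = 0.0105).

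Below NZO the strains also differed in Aldh1a3, over a narrower range. CAST had a mean of 3.69 TPM ± 3.94 (n = 14), WSB 2.28 TPM ± 2.41 (n = 16) and AJ 2.11 TPM ± 0.858 (n = 14). B6 had 1.16 TPM ± 0.996 (n = 18), NOD 0.843 TPM ± 0.388 (n = 10) and PWK 0.646 TPM ± 0.344 (n = 5). Of these neighbours only AJ and B6 differed beyond their spread (permutation test, adjusted p = 0.0176). On normalized counts that pair missed the threshold (adjusted p = 0.0865, edgeR), while AJ minus WSB was -0.86 on the log2 scale (adjusted p = 0.0386), so the order in this range depends on the scale and the test. The CAST libraries reached from 0.66 through a median of 2.25 to 15.6 TPM, the widest span outside NZO, and 129 from 1.90 through 4.57 to 9.41 TPM. In the fit without NZO the strain effect held at an adjusted p of 5.30e-12 (edgeR), with a highest-to-lowest difference of 3.85 instead of 7.29 (SE 0.79) on the log2 scale.

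Other genes that handle retinal and retinol were also unequal among strains, and NZO stood at an end of several. All 16 genes of a list for this pathway were called between strains. Aldh1a7, an aldehyde dehydrogenase close to Aldh1a1, ranged from 5.61 TPM ± 2.08 in NZO to 0.189 TPM ± 0.235 in AJ. Rbp4, which carries retinol in the blood, went the other way and was lowest in NZO at 57.8 TPM ± 18.7, against 422 TPM ± 135 in PWK. The delta cell markers were likewise lowest in NZO, at a median sum of 1312 TPM, against 14978 TPM in PWK. The part of delta cell RNA in the level of Rbp4 was not tested. Aldh1a2, another enzyme that makes retinoic acid, was highest in PWK at 1.07 TPM ± 0.427 and lowest in AJ at 0.103 TPM ± 0.151. Against B6, 6 of the 16 genes were higher and 2 lower in NZO, and against 129, 5 were higher and 1 lower. Over all genes 18.7% were higher and 12.7% lower against B6, and 16.1% and 14.5% against 129, so the numbers lower, 2 and 1 of 16, do not stand above the background. Without replicate 4 the counts were 6 and 1 against B6, and 4 and 1 against 129, where 13.2% and 10.7% of all genes were higher. The duct markers had medians of 252 TPM in NZO, 66.9 TPM in B6 and 50.8 TPM in 129, the mesenchyme markers 59.3, 14 and 19.9 TPM, and the acinar markers 66269, 54930 and 17708 TPM, with AJ, lowest in Aldh1a7, also lowest in acinar markers at 5163 TPM. Their part in the counts of this list was not tested. The close relatives Aldh1a1 and Aldh1a7 may share reads, so their separate levels are uncertain.

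**Figure D2:**
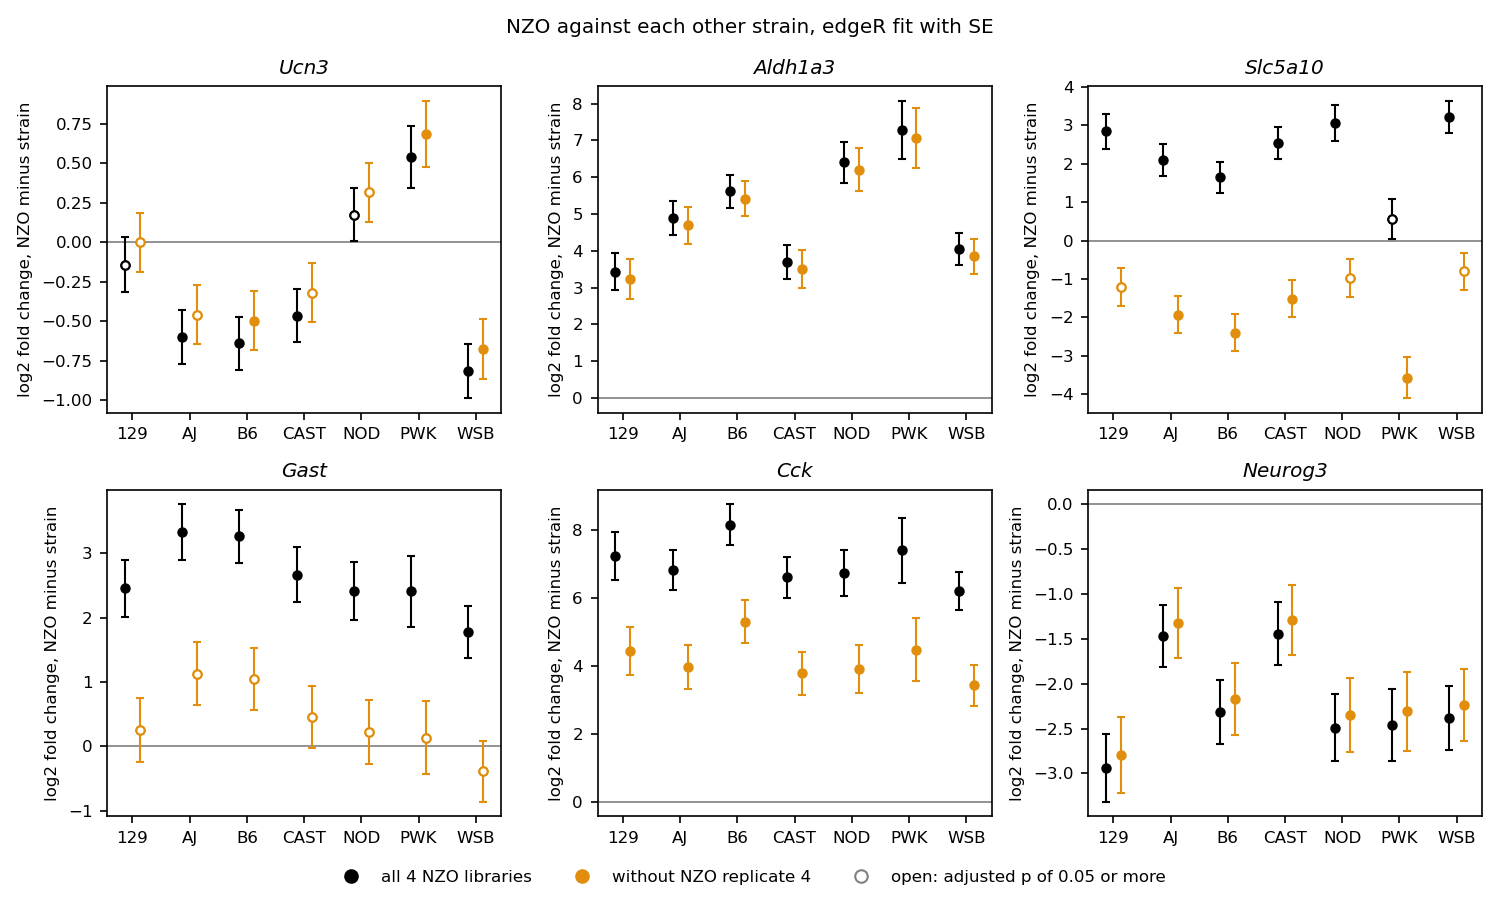
Log2 fold change with its SE of NZO against each of the 7 other strains, for each gene, from the edgeR fit with all 4 NZO libraries (black) and without NZO replicate 4 (orange); open points have an adjusted p of 0.05 or more. Aldh1a3 and Cck stay above 0 and Neurog3 below 0 both ways, Slc5a10 turns from above to below 0, and the 7 Gast contrasts with all libraries filled become open without that library.

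Of the other members, Ucn3, Slc5a10 and Gast gave different calls in NZO with and without replicate 4, while Neurog3 and Cck kept theirs against all 7 strains. For Ucn3, replicates 1 to 4 held 238, 236, 260 and 149 TPM. With all 4 libraries NZO was lower than AJ, B6, CAST and WSB and higher than PWK, with log2 fold changes from -0.82 to 0.54, and without replicate 4 only the differences from B6, WSB and PWK passed the test. Aldh1a3 was higher in NZO than in all 7 strains both with replicate 4 (log2 fold changes of 3.43 to 7.29) and without it (3.23 to 7.08). Neurog3 was lower in NZO than in all 7 strains both ways, by log2 fold changes of -2.94 to -1.44 and of -2.79 to -1.29. These contrasts read against a background, in all genes without the filter, of 18.7% higher and 12.7% lower in NZO than in B6, and of 16.1% higher and 14.5% lower than in 129. Without replicate 4 the background was 13.2% and 9.42% against B6, and 10.7% and 10.1% against 129. All members but Cck were fitted among the filtered genes, for which these shares are not given here, so the gene sets differ.

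Slc5a10 was high in PWK and in 1 NZO library. The gene (ENSMUSG00000042371.12) lies on the minus strand of chromosome 11, from 61672781 to 61720826. In NZO it held 0.11, 0.10, 0.07 and 6.88 TPM, so that replicates 1 to 3 were under the median of the 87 other libraries, 0.29 TPM, and replicate 4, with 271 counts, exceeded all of them. With all 4 libraries NZO was higher than 6 strains, and without replicate 4 it was lower than AJ, B6, CAST and PWK, by log2 fold changes down to -3.57. The NZO mean of 1.79 TPM ± 3.39 (SD, n = 4) is thus the value of 1 library.

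In PWK the high level of Slc5a10 was shared by every library. The 5 PWK libraries held 1.39, 2.35, 0.82, 1.04 and 0.88 TPM, from 30.7 to 84.5 counts each. Among the 82 libraries of the 6 strains other than PWK and NZO, only 1, B6 replicate 11 at 0.95 TPM, reached the lowest PWK library. PWK was higher than all strains but NZO, by 1.08 (SE 0.39) against B6 to 2.66 (SE 0.40) against WSB on the log2 scale. The next levels were 0.491 TPM ± 0.202 in B6 (n = 18), 0.408 TPM ± 0.102 in AJ (n = 14), 0.258 TPM ± 0.0945 in CAST (n = 14) and 0.253 TPM ± 0.0937 in 129 (n = 10). NOD had 0.182 TPM ± 0.103 (n = 10) and WSB 0.148 TPM ± 0.0725 (n = 16). Between neighbours, PWK exceeded B6 (exact permutation test, adjusted p = 0.00433) and AJ exceeded CAST (permutation test, adjusted p = 0.00784), and the others did not differ beyond their spread. On normalized counts PWK and B6 differed too, but AJ and CAST did not pass the test (adjusted p = 0.252, edgeR). Slc5a10 had a median of only 12.1 counts per library.

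Slc5a10 overlaps 2 genes on the opposite strand, Fam83g and Grap, and the strand setting of the counting is not given in the sources used here. Fam83g did not follow Slc5a10: it held 6.68 to 13.9 TPM in PWK, against a median of 15.1 TPM in the 87 libraries outside NZO, and 12.3 TPM in NZO replicate 4, the lowest of the 4. Grap held 2.23 TPM in that library and 2.16 to 4.06 TPM in the other 3. In PWK, Grap ranged from 0.52 through a median of 1.85 to 3.50 TPM, against a median of 1.33 TPM in the 87 libraries outside NZO, and the part of reads shared with Grap was not tested. Among 10 related sodium and sugar transporters, all were called between strains. Slc5a9, a mannose and glucose cotransporter, was highest in NZO at 1.46 TPM ± 0.858 and lowest in PWK at 0.066 TPM ± 0.0537, the strain in which Slc5a10 was high. Slc5a1, the glucose cotransporter of the gut, was also highest in NZO, at 1.72, 0.78, 0.92 and 5.43 TPM. These 2 were the transporters of the list that were higher in NZO than in B6, and without replicate 4 Slc5a9 was, beside 18.7% and 13.2% of all genes.

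Gast was near the detection limit outside NZO. The gene (ENSMUSG00000017165.1) lies on the plus strand of chromosome 11, from 100334407 to 100336996. Its median was 4 counts per library, and in 33 of the 91 libraries it had 3 counts or fewer, which correspond to 0.259 to 0.513 TPM. In NZO it held 2.23, 0.23, 0.32 and 12.7 TPM, where replicate 4 had 93 counts. The 87 other libraries ranged from 0 to 1.65 TPM with a median of 0.51. Replicates 1 and 4 of NZO thus exceeded every other library, while replicates 2 and 3 lay within the range of the other strains. With all 4 libraries NZO was higher than all 7 strains (log2 fold changes of 1.78 to 3.33), and without replicate 4 the log2 fold changes ran from -0.39 to 1.13 with a smallest adjusted p of 0.0709 (edgeR).

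The other strains held Gast at means of 1.00 TPM ± 0.383 in WSB (n = 16), 0.824 TPM ± 0.626 in PWK (n = 5), 0.766 TPM ± 0.367 in 129 (n = 10) and 0.710 TPM ± 0.265 in NOD (n = 10). CAST had 0.526 TPM ± 0.344 (n = 14), AJ 0.394 TPM ± 0.249 (n = 14) and B6 0.354 TPM ± 0.239 (n = 18). WSB was higher than AJ, B6 and CAST, and NOD higher than AJ and B6. None of the 7 neighbouring pairs differed beyond its spread (smallest adjusted p = 0.337, permutation tests), NZO and WSB included (exact permutation test, adjusted p = 0.711). At these counts, single reads move the values.

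Cck was all but silent outside NZO. With all libraries it had the largest fitted difference between strains of the 6 genes, and without NZO replicate 4 that of Aldh1a3 was larger, at 7.08 against 5.30 on the log2 scale. The gene (ENSMUSG00000032532.7) lies on the minus strand of chromosome 9, from 121489824 to 121495694. The NZO libraries held 7.87, 1.5, 3.43 and 98.3 TPM, from 100, 21, 54 and 1181 counts. In the 87 other libraries it ranged from 0 to 1.55 TPM with a median of 0.18, and 62 of all 91 libraries had 3 counts or fewer. NZO replicates 1, 3 and 4 exceeded every other library, and replicate 2 all but NOD replicate 7. NZO was higher than all 7 strains with all libraries (log2 fold changes of 6.2 to 8.16) and without replicate 4 (3.43 to 5.30). The fold changes themselves are loosely set, because the other strains held medians of 1 to 4 counts.

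Outside NZO the mean of Cck was 0.325 TPM ± 0.260 in WSB (n = 16), 0.309 TPM ± 0.464 in NOD (n = 10), 0.266 TPM ± 0.304 in CAST (n = 14) and 0.256 TPM ± 0.220 in AJ (n = 14). PWK had 0.228 TPM ± 0.134 (n = 5), 129 had 0.220 TPM ± 0.197 (n = 10) and B6 had 0.107 TPM ± 0.117 (n = 18). Of the neighbouring pairs only NZO and WSB differed (exact permutation test, adjusted p = 0.00433), and the 2 pairs of other strains that passed the test of the model were CAST and WSB, each higher than B6. At 0 counts, which 7 of the 18 B6 libraries had, the absence of Cck RNA cannot be told from a level under the limit of 3 counts.

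Gast and Cck were high in the same NZO library, so the stretches of genome ahead of both genes are shown, each the 250 bases before the start of the gene as RefSeq gives it for GRCm38.p6, at chr9:121495695-121495944 (minus strand) for Cck and chr11:100334157-100334406 (plus strand) for Gast. Capitals mark matches to the motifs searched on both strands, which were the E-box CACGTG, the variant TGACGCA of the cyclic AMP response element, the full element TGACGTCA, the TATA box TATAAA and the GC box GGGCGG.
Cck: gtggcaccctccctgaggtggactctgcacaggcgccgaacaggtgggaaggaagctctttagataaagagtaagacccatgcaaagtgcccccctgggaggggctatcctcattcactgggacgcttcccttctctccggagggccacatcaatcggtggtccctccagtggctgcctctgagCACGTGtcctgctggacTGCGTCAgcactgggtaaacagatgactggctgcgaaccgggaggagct
Gast: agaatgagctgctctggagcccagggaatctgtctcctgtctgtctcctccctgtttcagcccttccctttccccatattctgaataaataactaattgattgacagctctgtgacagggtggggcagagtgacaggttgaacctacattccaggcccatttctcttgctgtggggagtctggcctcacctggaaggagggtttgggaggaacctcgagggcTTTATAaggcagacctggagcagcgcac
In the Cck sequence an E-box begins 66 bases before the start and the TGACGCA variant, on the opposite strand, 49 bases before it. In the Gast sequence the TATA box matched on the opposite strand, 28 bases before the start. Of 32851 promoters of the same length, 6.02% held the E-box, 1.75% the TGACGCA variant, 12.4% the TATA box, 1.55% the full element and 32.7% the GC box, and the last 2 motifs were found in neither gene. The 2 promoters shared no motif of these 5. RefSeq promoters were matched for 5 of the 6 members, and that of Aldh1a3 was not analysed here.

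The machinery that turns the gastrin and cholecystokinin precursors into hormones was present in every strain. All 9 genes of a list of receptors and processing enzymes were called between strains. Cckar, the receptor of cholecystokinin, was highest in CAST at 43.5 TPM ± 19.2 (n = 14) and lowest in AJ at 2.00 TPM ± 2.17 (n = 14), and held 1.88, 19.9, 17.8 and 16.1 TPM in NZO. The acinar markers had the same ends, with a median sum of 100657 TPM in CAST and 5163 TPM in AJ, and in NZO replicate 1, the lowest of its strain in Cckar, they summed to 7300 TPM against 51924 to 87985 TPM in the other 3 libraries. The part of acinar RNA in the level of Cckar was not tested. Cckbr, the receptor of gastrin, was near 0 throughout, with a highest mean of 0.193 TPM ± 0.157 in NOD. Tpst1, which sulfates tyrosines of such peptides, was 15.1 TPM ± 1.62 in 129 and 5.18 TPM ± 2.07 in CAST, and Pam, which amidates their ends, was 316 TPM ± 41 in 129 and 121 TPM ± 34.6 in CAST. In NZO 3 of the 9 were lower than in B6 with and without replicate 4, Pcsk1, Pcsk2 and Cckbr, of which Pcsk1 and Pcsk2 cut such precursors, where 12.7% and 9.42% of all genes were lower. Against 129, where 14.5% and 10.1% of all genes were lower, 3 were lower with and without replicate 4, namely Pcsk1, Pcsk2 and Pam. With that library 1 was higher, Pcsk5, at 0.223 TPM in NZO, where 16.1% of all genes were higher.

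NZO replicate 4 carried signs of other cells beside its high Slc5a10, Gast and Cck. It held 28.7 times the median of NZO replicates 1 to 3 for Cck, but 2.19 times for Aldh1a3, 0.551 times for Neurog3 and 0.629 times for Ucn3. For Slc5a10 and Gast no ratio is given, because those medians rest on 4.39 and 3 counts. Its 5 duct markers summed to 842 TPM, against 266, 165 and 238 TPM in replicates 1 to 3 and 31.7 to 262 TPM in the 87 other libraries. Of that sum 772 TPM came from Spp1 and 27.2 TPM from Krt19. Its mesenchyme markers, at 143 TPM, and its proliferation markers, at 13.8 TPM, were above those of its strain's median and within the range of the other libraries (6.73 to 236 and 0.54 to 61.5 TPM). Its macrophage markers summed to 30.1 TPM, against 9.65, 10.1 and 10.4 TPM in replicates 1 to 3 and 3.19 to 161 TPM in the other strains with a median of 7.09. Its beta cell markers, at 440982 TPM, and its acinar markers, at 51924 TPM, lay within the NZO range.

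The 8 markers of intestine and stomach epithelium, tissues that make gastrin and cholecystokinin, summed to 42.1 TPM in NZO replicate 4, against 0.82 to 127 TPM in the libraries outside NZO. Nearly all of that came from Vil1, at 41.8 TPM, while Alpi, Lct, Muc2, Tff1 and Gkn1 stood at 0, Fabp2 at 0.23 TPM and Muc5ac at 0.01 TPM. Alpi, Tff1 and Gkn1 were at 0 in all 4 NZO libraries. The 4 markers of neurons, which also make cholecystokinin, summed to 11.1 TPM in that library, the lowest of NZO and under the median of 15.4 TPM elsewhere. The part of the duct, mesenchyme and macrophage markers in the values of this library was not tested.

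Neurog3 was lowest in NZO and highest in 129. The gene (ENSMUSG00000044312.4) lies on the plus strand of chromosome 10, from 62133090 to 62134763. The NZO libraries held 0.94, 0.49, 0.28 and 0.27 TPM, and the 87 others 0.29 to 5.74 TPM with a median of 1.96. Replicates 3 and 4 were thus under every other library, and only 8 and 3 of the other libraries were under replicates 1 and 2. The 129 libraries ranged from 1.85 through a median of 4.09 to 5.74 TPM and held 4 of the 5 highest values. Their mean, 4.07 TPM ± 1.07 (SD, n = 10), exceeded that of NZO, 0.495 TPM ± 0.314 (n = 4), by 2.94 on the log2 scale of normalized counts (SE 0.38, adjusted p = 4.85e-10, edgeR).

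Between these ends lay PWK at 2.67 TPM ± 0.868 (n = 5), NOD at 2.63 TPM ± 1.07 (n = 10), WSB at 2.26 TPM ± 0.800 (n = 16) and B6 at 2.19 TPM ± 0.899 (n = 18). AJ, at 1.43 TPM ± 0.679 (n = 14), and CAST, at 1.13 TPM ± 0.413 (n = 14), were lower than these 4 and than 129. By the model AJ was lower than its neighbour B6 (adjusted p = 0.000125, edgeR), and 129 was higher than AJ, B6, CAST, NZO and WSB. In permutation tests only CAST and NZO differed beyond their spread among the neighbours in this order (exact test, adjusted p = 0.0412). The 4 alpha cell markers had the same ends as Neurog3, with a median sum of 29651 TPM in 129 and 5934 TPM in NZO, where replicates 1 to 4 held 13651, 7465.5, 3171 and 4403 TPM. Between the ends the order was not shared, with CAST, low in Neurog3, at 12641 TPM and NOD at 11584 TPM. The part of alpha cell RNA in the level of Neurog3 was not tested. Neurog3 lies within the span of Fam241b on the opposite strand. Fam241b was 10.7, 11.1, 10.9 and 13.1 TPM in NZO, against a median of 12.6 TPM in the other strains, and 14.4 to 22.7 TPM in 129, the strain highest in Neurog3.

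Most other genes of the endocrine progenitor program did not share the low level of Neurog3 in NZO. Of 17 genes of that list, 15 were called between strains. Only Fev and Runx1t1 were lower in NZO than in B6, and Fev and Rfx3 lower than in 129, where 12.7% and 14.5% of all genes were lower. Without replicate 4 Rfx3 missed the threshold (adjusted p = 0.0598, edgeR), and Fev and Runx1t1 kept their calls. Hes1, a target of Notch, was the only gene of the list higher than in B6 or 129, with and without that library. Over all genes 18.7% and 16.1% were higher with it, and 13.2% and 10.7% without it. The duct markers were also higher in NZO, at a median sum of 252 TPM, against 66.9 TPM in B6 and 50.8 TPM in 129. The part of duct RNA in the level of Hes1 was not tested. Fev, a transcription factor that appears after Neurog3 in developing endocrine cells, held 2.84, 2.29, 2.49 and 2.20 TPM in NZO, the lowest strain, and 9.83 TPM ± 3.40 in PWK (n = 5). The delta cell markers were also lowest in NZO, at a median sum of 1312 TPM, against 14978 TPM in PWK. The part of delta cell RNA in the level of Fev was not tested. Runx1t1 ranged from 10.2 TPM ± 3.15 in PWK to 2.91 TPM ± 0.829 in NOD. Dll1, a ligand of Notch, ranged from 7.55 TPM ± 1.75 in AJ to 2.32 TPM ± 0.841 in PWK, and Rfx6, a transcription factor of endocrine cells, from 61.2 TPM ± 6.65 in 129 to 25.1 TPM ± 7.51 in NOD. The median log2 fold change of the list in NZO was -0.01 against B6 and 0.01 against 129, beside -0.00 and -0.01 over all genes tested, and without replicate 4 it was 0.02 and -0.09, beside -0.01 and -0.02.

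**Figure D3:**
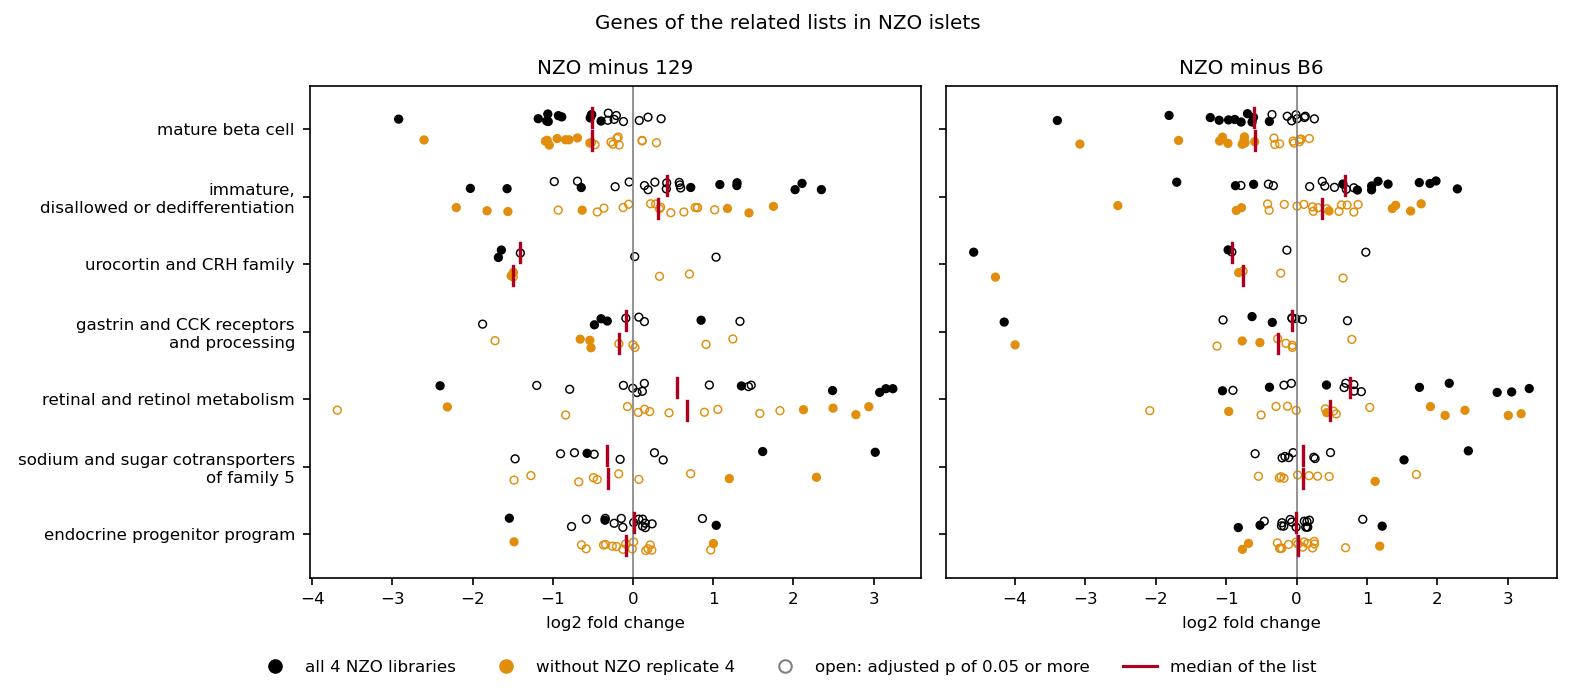
Log2 fold change of each tested gene of the 7 related lists in NZO against 129 (left) and B6 (right), with all 4 NZO libraries (black) and without NZO replicate 4 (orange); open points have an adjusted p of 0.05 or more and red bars are list medians. The filled points of the mature beta cell list lie below 0, and the medians of that list lie between -0.61 and -0.52.

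Many genes of the mature beta cell were lower in NZO, while the insulin genes passed the test against neither B6 nor 129. Of 20 listed genes 19 were found and tested, and all 19 were called between strains. In NZO 11 were lower than in B6 and 11 lower than in 129, and the other 8 did not pass the test. Over all genes 12.7% and 14.5% were lower. Without replicate 4 the counts lower were 10 and 9, beside 9.42% and 10.1% of all genes. The summed beta cell markers, of which Ins1 and Ins2 make up most, had a median of 432468 TPM in NZO and 450994 TPM elsewhere. The acinar markers had medians of 66269 TPM in NZO, 54930 TPM in B6, 17708 TPM in 129 and 5163 TPM in AJ, and the duct markers 252, 66.9, 50.8 and 40.8 TPM, and their part in the lower levels was not tested. Npas4, a transcription factor induced by activity, held 12.2, 9.13, 6.39 and 2.06 TPM in NZO and 76.6 TPM ± 24.9 in AJ (n = 14). Trpm5, a cation channel of beta cells, held 66.3, 33.5, 18.9 and 19.9 TPM in NZO against 148 TPM ± 17.1 in AJ. Slc2a2, the glucose transporter of the mouse beta cell, was lowest in NZO at 88 TPM ± 36.6, against 239 TPM ± 21.1 in AJ. Glp1r, the receptor of the incretin GLP-1, was highest in 129 at 246 TPM ± 19.4 and lowest in NOD at 88.2 TPM ± 28.8. In NZO Glp1r was lower than in 129, at a log2 fold change of -1.06 (adjusted p = 1.88e-08, edgeR), and of -1.09 without replicate 4 (adjusted p = 4.34e-07). Against B6 the log2 fold changes of Ins1 and Ins2 were 0.25 and -0.07, and against 129 they were 0.19 and 0.08. Without replicate 4 they were 0.18 and -0.04 against B6 and 0.11 for each against 129, again short of the threshold.

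The list of immature, disallowed and dedifferentiation genes was mixed. All 22 genes were tested and 20 were called between strains. In NZO 10 were higher and 3 lower than in B6, and 7 higher and 3 lower than in 129. Over all genes the shares were 18.7% and 12.7% against B6, and 16.1% and 14.5% against 129. Without replicate 4 the counts were 5 higher and 3 lower against B6, and 3 higher and 4 lower against 129, beside 13.2%, 9.42%, 10.7% and 10.1% of all genes. Among the genes with the widest spread between strains, Vim, a filament protein of mesenchymal and dedifferentiating cells, held 39.8, 27.9, 31.6 and 83 TPM in NZO, 187 TPM ± 171 in NOD (n = 10) and 10.7 TPM ± 2.56 in B6 (n = 18). Igfbp4 and Pdgfra, also expressed by mesenchymal cells, were likewise highest in NOD, at 32.5 TPM ± 29.2 and 2.91 TPM ± 2.45, and lowest in B6, at 2.06 TPM ± 0.607 and 0.199 TPM ± 0.156. The mesenchyme markers summed to a median of 93.4 TPM in NOD, the strain with the highest Vim, and 14 TPM in B6. In NZO they summed to 54.6, 44.4, 64.1 and 143 TPM, above the B6 maximum of 30.1 TPM and the 129 maximum of 31.5 TPM. The duct markers had medians of 252 TPM in NZO, 66.9 TPM in B6 and 50.8 TPM in 129. In NOD the macrophage markers had a median of 39.9 TPM and the T cell markers 57.1 TPM, against 6.6 and 0.245 TPM in B6. The part of these other cells in the levels of this list was not tested. Npy, a neuropeptide of immature beta cells, was highest in CAST at 234 TPM ± 102 and lowest in NZO at 1.6 TPM ± 1.26. NZO was thus at the low end of Npy while at the top of Aldh1a3.

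Against labelled sex, only Aldh1a3 was called. With all 91 libraries it was higher in males by 0.72 on the log2 scale (SE 0.22, adjusted p = 0.0391, edgeR), where 4.01% of filtered and 3.05% of unfiltered genes were called. Without the 12 libraries in conflict with their label the difference was 1.23 (SE 0.18, adjusted p = 4.93e-07, n = 79 libraries in an edgeR fit), where 9.79% and 7.31% of genes were called. Slc5a10 missed the threshold both times, at 0.55 (SE 0.19, adjusted p = 0.0882) and 0.59 (SE 0.21, adjusted p = 0.0612). Ucn3, Gast, Cck and Neurog3 were not called, with differences of 0.01, 0.11, 0.21 and -0.13 over all libraries.

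By the labels, the male excess of Aldh1a3 was largest in B6 and CAST, and without the libraries in conflict it was largest in 129, where 2 libraries of each sex were then left. In B6, the 9 labelled females ranged from 0.18 through a median of 0.46 to 0.67 TPM, and the 9 males from 0.56 through 1.46 to 3.10 TPM. The ranges overlapped only between 0.56 and 0.67 TPM, and the means were 0.452 TPM ± 0.159 and 1.87 TPM ± 0.972 (SD). In CAST the females ranged from 0.66 through 1.29 to 3.82 TPM (n = 6) and the males from 1.05 through 4.08 to 15.6 TPM (n = 8). In AJ the means were closer, 1.86 TPM ± 0.781 in females and 2.35 TPM ± 0.921 in males (n = 7 each). In NZO the only male library was the highest of its 4, and in PWK the only female, at 0.70 TPM, lay among the males.

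**Figure D4:**
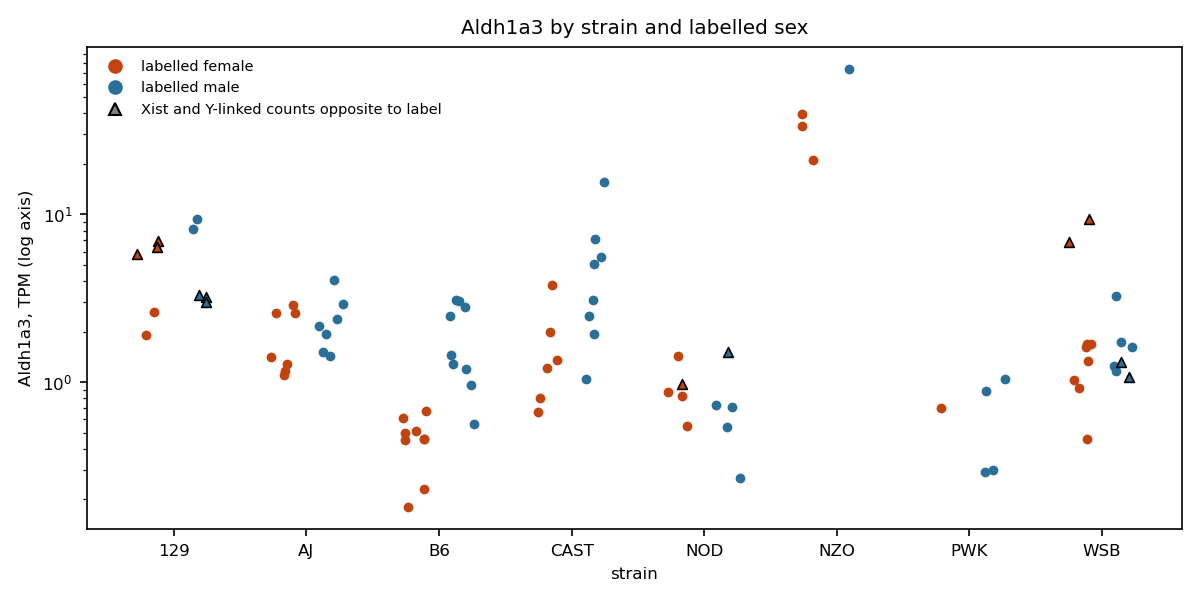
Aldh1a3 in TPM on a log axis in each library, by strain, with labelled females (orange) on the left and labelled males (blue) on the right of each strain; triangles are the 12 libraries whose Xist and Y-linked counts go against the label. In B6 and CAST most males lie above most females. In 129, and among labelled females of WSB, the triangles lie apart from the circles of the same labelled sex. Those of labelled WSB males lie near or among the circles.

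The sexes differed unequally among strains as labelled. In the 82 libraries of 129, AJ, B6, CAST, NOD and WSB, the 6 strains in which each sex had 5 or more libraries, the interaction of strain and sex was called for Aldh1a3 (adjusted p = 0.0357, edgeR), and the other members had adjusted p-values of 0.342 to 0.977, where 5.9% of filtered and 5.01% of unfiltered genes were called. The male-minus-female log2 differences of Aldh1a3 were 1.90 in B6, 1.55 in CAST, 0.57 in AJ and NOD, 0.20 in 129 and -0.75 in WSB. By limma-voom the interaction was not called (adjusted p = 0.227). Without the libraries in conflict, the interaction of Aldh1a3 was not called (adjusted p = 0.175, edgeR, where 17.6% of genes were), and the difference was 2.23 in 129 and 0.75 in WSB. In 129 the 3 labelled females in conflict held 5.81 to 6.99 TPM and the other 2 held 1.90 and 2.63 TPM, while the 3 labelled males in conflict held 2.99 to 3.33 TPM and the other 2 held 8.21 and 9.41 TPM. In WSB the 2 labelled females in conflict, at 6.86 and 9.40 TPM, were the highest of that strain. In NOD without the 2 libraries in conflict the TPM went against the fitted difference, with a mean of 0.923 TPM ± 0.373 in females and 0.563 TPM ± 0.213 in males (n = 4 each).

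Within strains the 6 genes varied largely apart from each other. In the 6 strains of 10 or more libraries, 90 correlations of log2(TPM + 0.1) between members were computed. Of these, 2 passed the adjustment by Pearson's r, each with a permutation p. In B6 Ucn3 was correlated with Aldh1a3 (r = 0.71, adjusted p = 0.0261; rho = 0.67, adjusted p = 0.0867, permutation tests, n = 18), and r was 0.54 without the 2 libraries of farthest Ucn3. That relation pools the sexes, and both genes were higher in B6 males, with Ucn3 at 272 TPM ± 93.4 in females and 379 TPM ± 40.6 in males (n = 9 each). Within the sexes, among 6 such relations tested by exact permutation, r was 0.81 in females (adjusted p = 0.0261; rho = 0.45, adjusted p = 0.326) and 0.37 in males (adjusted p = 0.325; rho = 0.18, adjusted p = 0.644). Without the 2 farthest libraries of each sex, r was -0.07 and -0.13, so the relation rests on those libraries. B6 replicates 14 and 15, the females lowest in both genes, held 264232 and 210879 TPM of acinar markers, against a B6 median of 54930 TPM. The part of acinar RNA in this relation was not tested. In WSB Ucn3 was correlated with Neurog3 (r = 0.77, adjusted p = 0.0261; rho = 0.71, adjusted p = 0.0867, n = 16), and r was 0.78 without the 2 farthest. Within WSB it was 0.84 in labelled females (adjusted p = 0.0089, exact permutation test, n = 9; 0.92 without the 2 farthest) and 0.82 in labelled males (adjusted p = 0.044, n = 7, exact permutation test; 0.25 without the 2 farthest, on which the value in males rests). By Spearman's rho only Slc5a10 and Gast in CAST passed (rho = 0.85, adjusted p = 0.0162; r = 0.65, adjusted p = 0.238, n = 14, permutation tests), with a rho of 0.83 in females (adjusted p = 0.117, n = 6) and 0.98 in males (adjusted p = 0.00179, n = 8) by exact permutation. On normalized counts 0 of the 90 passed by either measure, so these relations rest on the TPM scale.

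Among the other genes tested, those most like each member were named by Pearson's r of log2(TPM + 0.1), as a description. Over the 91 libraries after subtraction of the strain means, where all points share their library's composition, Ucn3 was followed most closely by Gjd2 (r = 0.89), which encodes the gap junction protein that couples beta cells, and Phyhip (0.89). Neurog3 was followed by Irx1, Tab1 and Irx2 (0.74 each), of which Irx1 and Irx2 are transcription factors of alpha cells. Aldh1a3 was followed by Tcf24 (0.74), Dapl1 (0.71) and Kcnh1 (0.69). The likeness was weaker for the 3 genes of low counts: Slc5a10 was nearest to Ros1 (0.62), Gast also to Ros1 (0.55) and Cck to Veph1 (0.51). In all 3, NZO replicate 4 stood far above the rest of its strain, so that library can weigh heavily in these values, and its weight was not tested. Over the 8 strain means, where NZO alone can set r, the nearest genes were Pygo1 for Ucn3 (0.96), Angpt2 for Aldh1a3 (0.95), Cdnf among the 3 nearest for Slc5a10 (0.96), Tgm3 for Gast (0.96), Slc4a5 for Cck (0.98) and Opn3 among the 3 nearest for Neurog3 (0.95).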

How the data were processed

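Islet RNA of 8 strains was read from 91 tables, 1 per library. Per the paper's methods and the submitters' processing notes, the authors quantified reads with RSEM against GENCODE vM18 (mm10). They deposited for each gene an expected count, not normalized between libraries, and a TPM value, scaled by transcript length and library. The RSEM version and read filters are not given in the sources used here. The members and lists were chosen with earlier results of these data known.

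Expected counts were rounded and fitted with edgeR 4.0.16 (R 4.3.3), with upper-quartile normalization, strain and labelled sex. A filter rebuilt from the study's description kept protein-coding genes of chromosomes 1 to 19 and X, without the lowest 10% of variance and non-zero in at least 85% of libraries. It left 15204 genes, which is not the number in the study, so the sets differ. An adjusted p under 0.05 was called. Levels are TPM as deposited, and 0.1 was added before logarithms. Permutation tests, two-sided, were exact or of 100000 resamples, adjusted over 42 neighbouring pairs or 90 correlations. Coordinates came from GENCODE vM21 (54079 of 54146 identifiers matched). Scripts were tested on simulated data. A depth limit of 3 counts covers counting error only. No 2 libraries of the same deposited sample were duplicates (lowest mean chi-square per gene 8.78 over 263 pairs, where 1 is sampling noise). Pairs across samples were not tested this way, and over all 4095 pairs the highest Pearson r was 0.991. Named list genes were the 4 with the widest strain range among the called, and others beside small counts were chosen after their values were seen. Some genes that these rules would name are not reported here. Alternatives were TMM, median-ratio factors, other filters, DESeq2 1.42.0, limma 3.58.1, sums per sample, an acinar marker covariate, and leaving out libraries, of which the fits without NZO, and without NZO replicate 4 for pairs and lists, and the correlations within sexes, were chosen after seeing the data.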

Additional observations from a re-analysis of the deposited data

Results flagged for a closer look

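Within strains of 4 to 10 libraries, 24 sets of values were searched for a library far from the rest of its strain by Dixon's test at the 95% level, and chance marks about 1 in 20 sets. In NZO, replicate 4 stood out for Slc5a10 at 6.88 TPM, Gast at 12.7 TPM and Cck at 98.3 TPM. In NOD, replicate 5 stood out for Slc5a10 at 0.43 TPM and replicate 7 for Cck at 1.55 TPM. The male-to-female difference of Aldh1a3 was unequal among the 6 strains tested, with an adjusted p of 0.0357 (edgeR interaction test), and that call was lost without the libraries in conflict with their sex label (0.175) and by limma-voom (0.227).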

How the results depend on the processing

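The direction and call of the strain effect held in 146 of 149 repeats with another setting over the 6 genes. Without NZO replicate 4 the Slc5a10 difference between NZO and WSB turned to -0.80 on the log2 scale, while the strain effect itself was still called (adjusted p = 1.53e-16, edgeR). On sums of the 16 deposited samples it was 4.01 with an adjusted p of 0.0582, and for Ucn3 within 129, NOD, NZO and PWK the difference was 0.63 with an adjusted p of 0.113. The sizes moved more than the calls. By limma-voom the differences were 1.05 for Slc5a10, 1.82 for Gast and 6.33 for Cck, and by limma on log2(TPM + 1), a scale that compresses low levels, 0.68, 1.09 and 3.20, with 4.81 for Aldh1a3 and 1.77 for Neurog3, beside 3.22, 3.33, 8.16, 7.29 and 2.94 in the edgeR model. With the acinar markers as a covariate all 6 were called (adjusted p at most 1.70e-10, edgeR). The cause was not tested beyond what these settings leave out. Leaving out each NZO library in turn gave 1.36 for Ucn3, 7.08 to 7.46 for Aldh1a3, -0.80 to 3.65 for Slc5a10, 1.13 to 3.75 for Gast, 5.30 to 8.60 for Cck and 2.69 to 3.41 for Neurog3, and the low ends of Slc5a10, Gast and Cck are without replicate 4. Leaving out each PWK library gave 1.29 to 1.49 for Ucn3, 7.02 to 7.70 for Aldh1a3, 3.22 to 3.23 for Slc5a10, 3.33 to 3.34 for Gast, 8.15 to 8.16 for Cck and 2.94 for Neurog3. The spread of the Aldh1a3 sex difference among strains was 2.65 (adjusted p = 0.0357), 1.66 (0.175) without the libraries in conflict with their sex label and 1.70 (0.227) by limma-voom. Correlations that passed fell to 0 on normalized counts. Numbers of pairs of strains and of neighbours stayed within 1.5 times, and all 23 repeats of the sex effects kept their side of the threshold. No paired analysis was possible because the labels give no replicate numbers shared between strains. Counts of 4 and 2 per library limit Gast and Cck.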
